A study of Saccharomyces cerevisiae with 18 samples.

Results

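The salt response of wild-type budding yeast in experiment 2 was measured in 6 of the 18 libraries of the series. They were chosen by the names of their columns in the deposited count table of that experiment, 3 for untreated (basal) cultures and 3 for cultures given 0.4 M NaCl for 15 min. The cells were the laboratory strain BY4741 with HOG1 in place, grown in YPD, a rich glucose medium, to an OD660 of 0.6. The 3 replicates of each group were biological triplicates per the labels, and per the labels the salt was the difference between the groups. The same experiment held 6 libraries of a hog1::KAN deletion strain (HOG1-KO), also basal and in salt, and experiment 1 held 6 other WT libraries with the same treatment, so that each of the 6 groups had 3. In experiment 2, polyadenylated RNA was purified with Lexogen beads and made into strand-specific libraries with a CORALL kit, whereas experiment 1 used a stranded TruSeq kit. All libraries of experiment 2 were sequenced in a shared pool, with single-end reads of 50 bp.

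In budding yeast a rise in external salt draws water from the cell and brings in toxic sodium. Membrane sensors activate the high osmolarity glycerol (HOG) pathway, whose kinase Hog1 drives the production of glycerol, the osmolyte that restores cell volume, and acts on transcription in the nucleus. The related zinc finger factors Msn2 and Msn4 turn on a general stress programme through the stress response element (STRE) when protein kinase A activity drops. At the same time genes for making ribosomes, many of which carry the upstream motifs PAC and RRPE, are turned down, and the cell cycle pauses. Proliferating cells spend much of their transcription on ribosomes, glycolysis and cell wall, so such transcripts are abundant before a stress.

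The 6 libraries held between 11135883 and 16527859 counts. The strain labels could be checked on marker genes. LEU2 and URA3, which BY4741 lacks, had 0 counts in each of the 6 libraries, and MET17, also deleted, had at most 2. HIS3, of which the strain carries a partial deletion that leaves part of the gene, had between 397 and 1143. MFA2, a pheromone gene of MATa cells, had between 1495 and 12836 counts per library, and MF(ALPHA)1, the main pheromone gene of the other mating type, between 2 and 4. Other marker genes of that mating type were less clear. MF(ALPHA)2 and STE3 had between 20 and 76 counts per library, and SAG1 had between 782 and 1199. HOG1 had between 2559 and 4808 counts per library. In experiment 1, whose cells carry the same strain label, LEU2 had between 1987 and 3066 counts, MET17 between 2437 and 6434 and URA3 between 168 and 407, which goes against that label for those libraries.

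Basal replicate 1 and salt replicate 2 deviated from their group mates. Relative to the mean of the other libraries of its group, salt replicate 2 differed at least 2-fold for 216 of 5128 genes whose mean log2 CPM was 3 or more, and basal replicate 1 for 41, against 3 to 12 in the other libraries. The hexose transporters were lower in both, with a median log2 deviation of -0.57 in basal replicate 1 and -1.06 in salt replicate 2, as were glycolysis (-0.69 and -1.01) and cell wall proteins (-0.70 and -0.92). Genes of large ribosomal subunit assembly were higher (0.30 and 0.51). Across 5064 genes the deviations of these libraries fell with the GC content of the gene (r = -0.41 and -0.29), where genes are not independent replicates. Those of the other 4 rose with it (r = 0.16 to 0.47). The deviations of a gene cancel within its group by construction, so the opposite sign in the group mates is not a separate observation. The change from basal to salt had r = 0.03 with GC content. One deviating library lies in each group, and their part in the results was not tested beyond the values without them given here.

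Levels below are CPM, read counts scaled to a fixed library total, after TMM scaling, which aligns the bulk of genes between libraries. They are relative to the library, and in these bulk samples fewer cells of a type and less RNA per cell cannot be told apart. A gene is described as called, or as having risen or fallen, where the edgeR quasi-likelihood test gave a Benjamini-Hochberg adjusted p under 0.05 over all genes tested. Changes are log2 values ± an approximate standard error. It was derived from the test, as the size of the change divided by the square root of the F statistic. Of 6107 genes tested, 1836 were called higher in salt (30.1%) and 1659 lower (27.2%), 57.2% in either direction. At least 2-fold changes were called higher for 998 genes (16.3%) and lower for 743 (12.2%), and the groups did not overlap for 29.1% of genes with higher and 25.9% with lower levels. The median log2 change of all genes was 0.04, with quartiles at -0.55 and 0.65. The upper tail was longer: 217 genes rose at least 8-fold and 63 at least 32-fold, while 59 fell at least 8-fold and 1, PHO84, at least 32-fold. Without the 2 deviating libraries 2005 genes were higher (32.6% of 6150) and 1948 lower (31.7%), and 3393 of the 3495 called genes kept their call and direction. With total counts alone as the scaling, the median of all genes moved to 0.21 and the calls to 2008 higher and 1234 lower. The test took its spread from all 12 libraries of experiment 2, HOG1-KO included. In a fit of only the 6 WT libraries 1422 genes were called higher and 1310 lower.

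**Figure D1:**
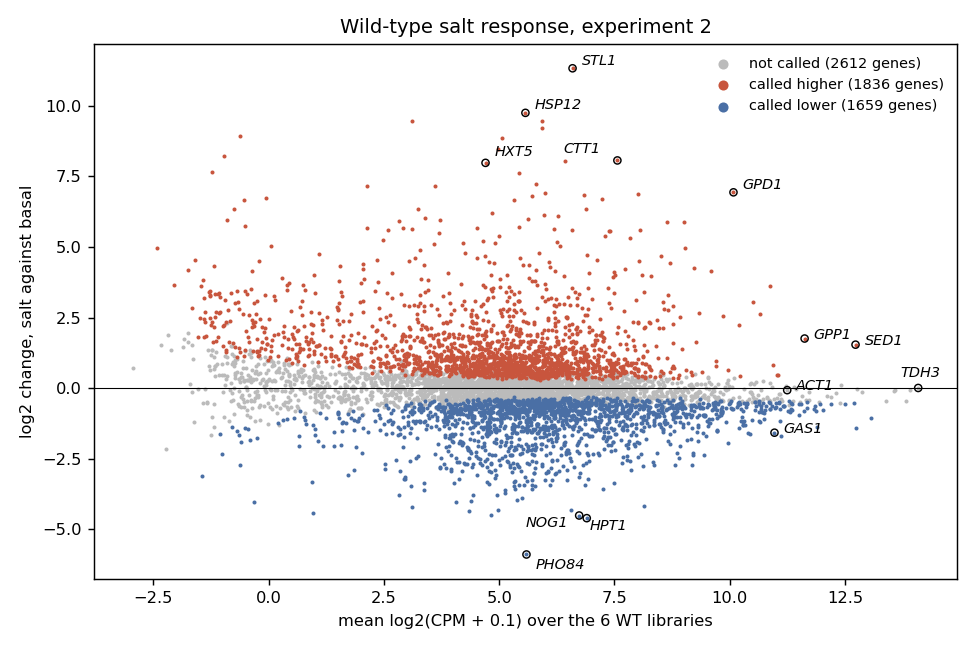
Log2 change in salt against the mean level of each of the 6107 tested genes over the 6 WT libraries (log2 of CPM plus 0.1). Red points were called higher, blue points lower and grey points not called, and circled genes are named. Increases reach 11.32 (STL1) and decreases -5.89 (PHO84), and the most abundant genes lie close to 0 or below it.

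Among the tested genes, the direction of the response was related to how abundant a transcript was before salt. Genes were placed by their basal level in experiment 1, whose libraries play no part in this contrast. Of 1058 tested genes below 8 CPM there, 41.0% rose and 7.56% fell. Of 811 genes between 128 and 512 CPM, 14.4% rose and 46.2% fell, and of 349 genes from 512 CPM upwards, 4.58% rose and 58.7% fell. The median log2 change went from 0.58 in the lowest of 5 classes to -0.56 in the highest. Of the 217 genes that rose at least 8-fold, 110 lay below 8 CPM and 3 at or above 512 CPM. The lowest class is limited by the low-count filter, which also used the salt libraries. A gene near silent before salt could pass it by its level in salt, while genes low in every group were left out. Genes with few counts before salt also had little room to fall. How far these limits shaped the shares of the lowest class was not tested.

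Glycerol production and uptake held the largest increase of all. STL1, the glycerol/proton symporter of the plasma membrane, had 1.04, 4.47 and 1.08 CPM in basal replicates 1, 2 and 3 and 6107, 3666 and 5798 CPM in salt replicates 1, 2 and 3. In counts these were 15, 41 and 15 against 72528, 69513 and 61408, and the fitted change was 11.32 ± 0.51 (edgeR adjusted p = 8.54e-11). This gene went from near silence to a high level in every salt library. Basal replicate 2 had the highest basal level, and without it the change was 12.24. Of 4 glycerol synthesis genes, 3 rose, against 30.1% of all genes. GPD1, the glycerol 3-phosphate dehydrogenase that commits glycolytic carbon to glycerol, stood at 74.5, 122 and 104 CPM basal and 13768, 8866 and 13944 CPM in salt. The phosphatase GPP1, which completes the path, rose from 1788, 1752 and 1612 CPM to 6159, 5699 and 5552 CPM, while its paralog GPP2 rose by 6.88 ± 0.20 on the log2 scale. Each of these genes had groups that did not overlap. The second dehydrogenase gene, GPD2, which serves redox balance without oxygen, was at 397, 617 and 509 CPM basal and 459.6, 301 and 482 CPM in salt and was not called (edgeR adjusted p = 0.215).

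Among 9 genes of glycerol uptake and breakdown, 5 rose and 1 fell, against 30.1% and 27.2% of all genes. Besides STL1, the dihydroxyacetone kinase DAK1 (2.40 ± 0.17), the mitochondrial glycerol 3-phosphate dehydrogenase GUT2 (1.86 ± 0.16) and the glycerol dehydrogenase GCY1 (1.62 ± 0.14) rose, whereas GUP2 fell (-1.32 ± 0.25). Of 6 genes for water and glycerol channels and their regulators, 1 rose and 2 fell, with the same background. RGC1, a positive regulator of the glycerol channel Fps1, rose (1.15 ± 0.15), and the aquaporin gene AQY2 fell (-1.60 ± 0.29). FPS1 itself fell slightly (-0.41 ± 0.14, edgeR adjusted p = 0.0195), a call that ended without basal replicate 2 (-0.34), without basal replicate 3 (-0.37), with total counts alone (-0.25) and in a fit of only the 6 WT libraries (-0.42).

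In the pathway that senses the salt, of 19 HOG pathway components 6 rose and 6 fell, with changes between -0.98 and 1.55, against 30.1% and 27.2% of all genes tested. The osmosensor SLN1 (-0.70 ± 0.19) and, in the other branch, SHO1 (-0.98 ± 0.14) and the mucin HKR1 (-0.88 ± 0.18) fell. Downstream of them the response regulator SSK1 (1.36 ± 0.14) and the kinase STE11 (0.77 ± 0.16) rose. HOG1 was at 222, 279 and 216 CPM basal and 356, 254 and 313 CPM in salt, and its change (0.36 ± 0.18) was not called (edgeR adjusted p = 0.0994), though it was without salt replicate 2 (0.42), without both deviating libraries (0.43) and with total counts alone (0.51). RCK1, a kinase related to the Hog1 target Rck2, rose by 1.55 ± 0.28.

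Among the phosphatases that switch MAP kinases off, 5 of 8 rose. SDP1, a stress-induced phosphatase, went from 2.09, 2.84 and 3.75 CPM basal to 39.0, 37.2 and 47.8 CPM in salt (3.83 ± 0.26, edgeR adjusted p = 5.60e-09), with no overlap of the groups. The tyrosine phosphatases PTP2 (1.35 ± 0.18) and PTP3 (1.27 ± 0.16), which act on Hog1, rose as well, and PTC2 fell (-1.08 ± 0.25). Of 11 transcription factors of the osmotic response, 5 rose and 2 fell, against 30.1% and 27.2% of all genes. Among the factors, MSN2 (2.32 ± 0.15) and SMP1 (1.26 ± 0.20) rose, SGD1 (-2.16 ± 0.17) and the corepressor TUP1 (-0.89 ± 0.22) fell, whereas MSN4 was not called (0.31 ± 0.13, edgeR adjusted p = 0.0525). MSN4 was called higher without salt replicate 2 (0.31), without both deviating libraries (0.40), with total counts alone (0.45) and when genes had to reach 10 CPM in 3 libraries (0.33).

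The sodium pump gene rose and the main proton pump gene fell. ENA1, the ATPase that exports sodium, went from 4.59, 6.22 and 7.43 CPM to 341, 202 and 418 CPM (5.72 ± 0.33, edgeR adjusted p = 1.00e-09). PMA1, the proton pump that powers most uptake, moved the other way, from 8123, 16620.0 and 14110.3 CPM to 6842, 3526 and 8202 CPM (-1.07 ± 0.28, edgeR adjusted p = 0.00491). In both groups the deviating library was lowest for PMA1, and salt replicate 3 lay above basal replicate 1, so the groups overlapped. The small proteolipids that accompany the pump fell too (PMP1 -1.01 ± 0.28, PMP2 -1.92 ± 0.26), as did the potassium importer TRK1 (-1.39 ± 0.19). The kinase HAL5 (1.68 ± 0.12) and HAL1 (1.90 ± 0.17), which raise salt tolerance, were higher. In all, 8 of 21 tested genes of sodium and potassium transport rose and 7 fell (median -0.01), with background shares of 30.1% and 27.2%. The calcium-activated phosphatase calcineurin and its targets rose in 8 of 14 cases and fell in 1, with the calcineurin regulator RCN2 (3.55 ± 0.21), the kinase CMK2 (3.16 ± 0.21) and the vacuolar calcium pump PMC1 (2.27 ± 0.20) changing most.

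The listed general stress genes rose almost as a block. In the list of Msn2 and Msn4 type genes, 38 of 39 increased, against 30.1% of all genes, with a median log2 change of 4.46 beside 0.04 for all genes. The list was chosen with earlier results of these data known, so its count is a description. CTT1, the cytosolic catalase, had 12.5, 11.6 and 10.5 CPM basal and 3003, 3198 and 3041 CPM in salt (8.06 ± 0.23, edgeR adjusted p = 7.76e-13). HSP12, a small membrane-associated protein of stressed cells, had 1.39, 2.29 and 1.23 CPM basal and 1155, 1688 and 1239 CPM in salt (9.74 ± 0.33). The salt libraries agreed closely for CTT1, whereas HSP12 was highest in salt replicate 2. DDR2, a stress-induced gene of uncertain function, rose by 8.47 ± 0.40, and the gene not called was the glutathione transferase GTT1 (0.43 ± 0.18, edgeR adjusted p = 0.0504). It was called higher without salt replicate 2 (0.52), without both deviating libraries (0.47), with total counts alone (0.57) and when genes had to reach 10 CPM in 3 libraries (0.45).

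The upstream sequences of CTT1, HSP12 and DDR2 are shown because each holds 3 copies of the STRE within 300 bases, and those of NSR1 and NOG1, strongly lowered ribosome assembly genes described below, because they hold PAC and RRPE instead. Each window runs from 400 to 101 bases before the start codon, on the strand of the gene, and was read from the R64 genome of RefSeq. Capitals mark the STRE (AGGGG, or CCCCT on the other strand), the PAC core (GATGAG, or CTCATC) and the RRPE core (AAAATTT, or AAATTTT). The windows lie at chrVI:106856-107155 on the plus strand for HSP12, chrVII:654234-654533 (plus) for CTT1, chrXV:231856-232155 (minus) for DDR2, chrVII:807757-808056 (minus) for NSR1 and chrXVI:370578-370877 (plus) for NOG1.
HSP12: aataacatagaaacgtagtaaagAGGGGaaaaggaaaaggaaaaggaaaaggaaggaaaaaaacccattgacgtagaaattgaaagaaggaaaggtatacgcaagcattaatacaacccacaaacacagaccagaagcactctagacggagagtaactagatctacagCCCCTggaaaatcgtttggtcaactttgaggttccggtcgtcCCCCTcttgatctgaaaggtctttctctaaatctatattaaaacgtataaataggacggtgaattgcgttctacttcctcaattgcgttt
CTT1: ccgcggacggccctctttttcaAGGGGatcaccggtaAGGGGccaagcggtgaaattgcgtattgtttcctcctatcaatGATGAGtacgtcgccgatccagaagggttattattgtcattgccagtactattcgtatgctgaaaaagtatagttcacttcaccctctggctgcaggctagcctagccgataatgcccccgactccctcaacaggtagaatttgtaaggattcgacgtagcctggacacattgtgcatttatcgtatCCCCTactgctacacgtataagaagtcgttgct
DDR2: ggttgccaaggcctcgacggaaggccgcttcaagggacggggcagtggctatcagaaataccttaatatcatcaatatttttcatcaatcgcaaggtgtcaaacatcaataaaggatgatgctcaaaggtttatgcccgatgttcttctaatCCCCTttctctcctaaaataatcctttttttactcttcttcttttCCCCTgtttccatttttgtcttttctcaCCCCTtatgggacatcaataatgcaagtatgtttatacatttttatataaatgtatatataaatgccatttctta
NSR1: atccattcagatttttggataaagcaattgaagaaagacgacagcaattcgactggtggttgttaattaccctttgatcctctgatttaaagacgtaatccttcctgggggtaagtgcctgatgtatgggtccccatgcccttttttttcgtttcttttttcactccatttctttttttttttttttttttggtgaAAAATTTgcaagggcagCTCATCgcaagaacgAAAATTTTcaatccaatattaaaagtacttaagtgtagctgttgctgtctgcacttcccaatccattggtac
NOG1: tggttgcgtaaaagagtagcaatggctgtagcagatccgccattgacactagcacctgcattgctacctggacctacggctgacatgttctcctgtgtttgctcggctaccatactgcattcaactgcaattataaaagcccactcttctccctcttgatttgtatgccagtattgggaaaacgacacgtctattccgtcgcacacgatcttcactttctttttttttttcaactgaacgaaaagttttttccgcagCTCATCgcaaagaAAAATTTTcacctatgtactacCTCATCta

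In HSP12 the STRE copies begin 377, 232 and 190 bases before the start codon, in CTT1 at 378, 363 and 133, and in DDR2 at 248, 203 and 175. CTT1 also has a PAC match at 320. NSR1 has a PAC core at 187 with RRPE cores at 204 and at 172 and 171, the latter overlapping as AAAATTTT, and NOG1 has PAC cores at 143 and 108 around overlapping RRPE cores at 130 and 129. Over 5987 windows of protein-coding genes, 23.5% held a STRE, 18.4% PAC and 24.3% RRPE on either strand. Among windows of called genes the STRE share was 36.3% for genes that rose, 19.4% for genes not called and 16.7% for genes that fell. It went to 68.5% of 181 windows for genes raised at least 8-fold and to 86.8% (46 of 53) for those raised at least 32-fold, of which 50.9% held more than 1 copy, against 4.11% of all windows. PAC and RRPE went the other way, from 13.3% and 18.0% in genes that rose to 28.5% and 38.3% in genes that fell and 55.2% and 65.5% in the 58 windows of genes lowered at least 8-fold. These shares are a description of letters in the windows, with no test, and neighbouring genes that share an upstream region share a sequence.

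**Figure D2:**
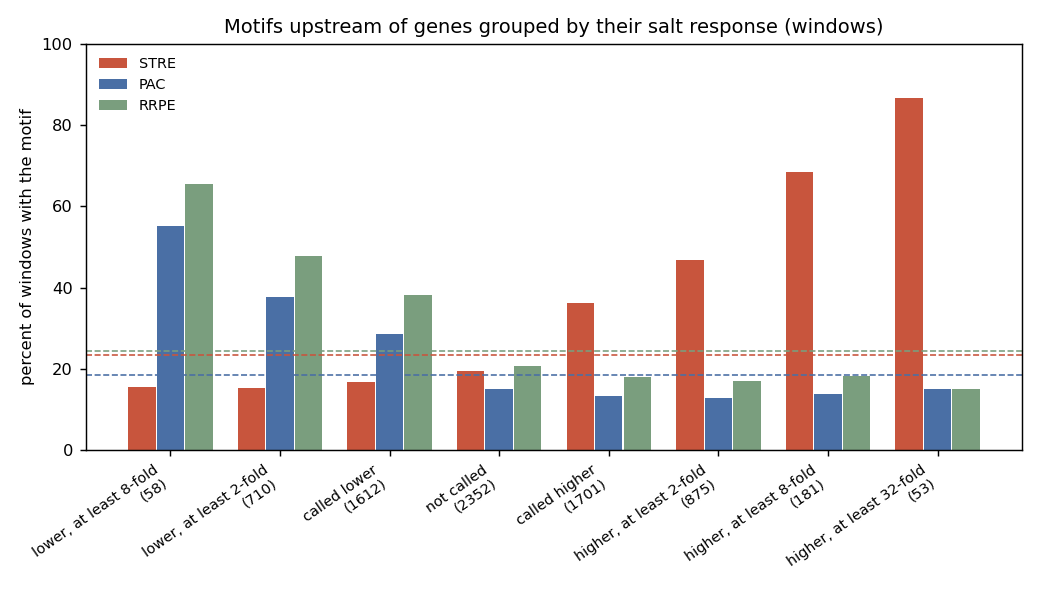
Percent of upstream windows with at least 1 match of the STRE (red), PAC (blue) or RRPE (green) on either strand, for genes grouped by call and size of the log2 change, with the number of windows in brackets. Dashed lines give the share over all 5987 windows. The STRE share is 15.5% in the leftmost class and 86.8% in the rightmost, and the PAC and RRPE shares are 55.2% and 65.5% in the leftmost and 15.1% each in the rightmost.

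All 7 tested genes of trehalose metabolism rose (median 3.54), those that break trehalose down as well as those that make it. Of all genes tested, 30.1% rose and 27.2% fell. TPS2, the trehalose 6-phosphate phosphatase, went from 69.6, 67.3 and 63.6 CPM to 3810.1, 4070.2 and 4034 CPM (5.89 ± 0.17, edgeR adjusted p = 8.11e-13), and the synthase TPS1 rose by 4.26 ± 0.19, while the trehalases NTH1 (3.54 ± 0.16) and ATH1 (3.24 ± 0.18) rose with them. Of 14 glycogen genes 13 rose, again on both sides, with the branching enzyme GLC3 at 5.20 ± 0.35 and the phosphorylase GPH1 at 3.21 ± 0.25. Among 9 hydrophilin and dehydration genes 7 rose and 2 fell. RTC3 (9.45 ± 0.34) and SIP18 (3.79 ± 0.33), a desiccation protein, rose, and the members that fell were GON7 (-1.04 ± 0.21) and NOP6 (-1.47 ± 0.20), which are known for tRNA modification and ribosome production.

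Small heat shock proteins and disaggregases rose in all 6 tested cases, among them HSP42 (7.22 ± 0.30), the aggregase of stressed cells, and the disaggregase HSP104 (4.67 ± 0.21). Of 20 Hsp70, Hsp90 and cochaperone genes 13 rose and 2 fell. The inducible Hsp70 gene SSA4 (4.30 ± 0.19) and the Hsp90 gene HSP82 (4.08 ± 0.23) rose, with HSP82 at 29.9, 36.5 and 24.4 CPM basal and 410.0, 625 and 497 CPM in salt. The ribosome-bound Hsp70 gene SSB1, which serves nascent chains, fell (-0.84 ± 0.25), a call that ended in a fit of only the 6 WT libraries (-0.85), in which 0 of the 20 fell. Of 14 genes of the chaperonin that folds actin and tubulin, and of its cofactor prefoldin, 0 rose and 11 fell. The latter count lay between 4 and 14 under the alternatives, with 5 without salt replicate 3, 7 without basal replicate 1 or salt replicate 1, and 14 without salt replicate 2. Aldehyde dehydrogenases and aldo-keto reductases rose in 11 of 13 cases and fell in 1, from ALD3 (8.02 ± 0.22) to the mitochondrial ALD5 (-0.70 ± 0.16). Oxidative stress defence was less uniform, with 11 of 26 higher, 1 lower and a median of 0.40, where 30.1% of all genes were higher and 27.2% lower.

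**Figure D3:**
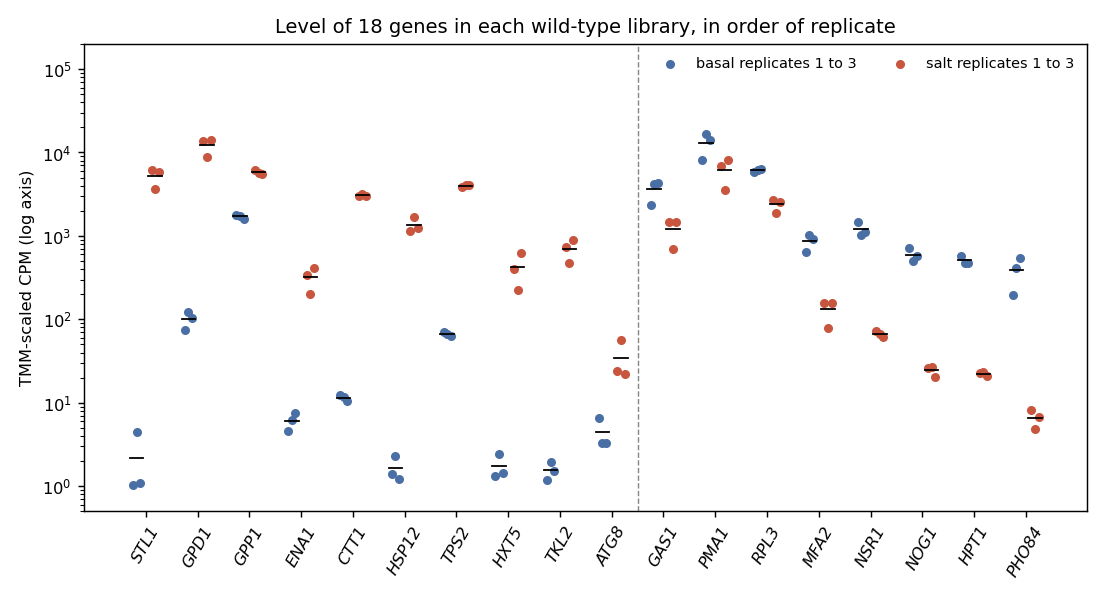
Level of 18 genes in each of the 6 libraries as TMM-scaled CPM on a log axis. Blue points are basal and red points salt replicates 1, 2 and 3 from left to right, bars are group means, and a dashed line divides genes that rose from genes that fell. The groups overlap for 1 of the 18 genes, PMA1, and salt replicate 2 is the lowest salt point for genes such as STL1, GPD1, HXT5, TKL2, GAS1, PMA1 and MFA2.

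In central carbon metabolism minor isozymes rose while many of the main forms were not called or fell. Of 14 glycolytic genes 3 rose and 0 fell (median -0.07), against 30.1% and 27.2% of all genes. TDH3, the main glyceraldehyde 3-phosphate dehydrogenase, had 12840.2, 22163 and 18771 CPM basal and 21503, 11404 and 21126 CPM in salt (0.01 ± 0.25). The spread between libraries is wider than the difference of the group means, with the deviating library lowest in each group. The members that rose were the minor forms PYK2 (1.93 ± 0.22), TDH1 (1.20 ± 0.28) and ENO1 (0.85 ± 0.27), the last losing its call without basal replicate 1 (0.63) or salt replicate 3 (0.58) and in a fit of only the 6 WT libraries (0.84). The main pyruvate kinase CDC19 was not called (-0.08 ± 0.25). Without basal replicate 1, 2 genes rose and 2 fell.

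In sugar phosphorylation 7 of 8 genes rose, against 30.1% of all genes. The glucokinase GLK1 (4.95 ± 0.31) and the hexokinase HXK1 (4.49 ± 0.16), both low in glucose-grown cells, rose, and HXK2, the hexokinase of cells growing on glucose, was not called (0.09 ± 0.22). In the pentose phosphate pathway, which supplies NADPH and ribose, the minor isozymes changed most. TKL2 went from 1.18, 1.96 and 1.51 CPM to 735, 471 and 897 CPM (8.85 ± 0.31), while the main transketolase TKL1 went from 1666, 2739 and 2649 CPM to 1608, 894 and 1655 CPM and fell (-0.76 ± 0.23), a call that ended in a fit of only the 6 WT libraries. The transaldolase pair NQM1 (7.60 ± 0.22) and TAL1 (0.03 ± 0.17, not called), and the lactonases SOL4 (7.17 ± 0.30) and SOL3 (-0.23 ± 0.17, not called), differed likewise. GND2 rose (3.11 ± 0.21), and its main counterpart GND1 was not called (-0.48 ± 0.22). GND1 was called lower without basal replicate 1 (-0.68) and without both deviating libraries (-0.45).

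In the respiratory chain, some alternative subunits rose while their main forms fell or were not called. CYC7, the cytochrome c form of cells short of oxygen, rose by 5.24 ± 0.33 and CYC1, the main form, fell (-1.86 ± 0.17). COX5B (3.02 ± 0.20) and the external NADH dehydrogenase NDE2 (2.69 ± 0.34) rose, while COX5A was not called (-0.14 ± 0.17) and NDE1 fell (-0.98 ± 0.23). Of 36 respiratory chain and ATP synthase genes 13 rose and 4 fell, against 30.1% and 27.2% of all genes. Genes of the tricarboxylic acid cycle rose in 13 of 19 cases (median 0.70), among them the citrate synthase CIT1 (1.96 ± 0.19) and the succinate dehydrogenase SDH1 (1.87 ± 0.23). Peroxisomal fatty acid oxidation rose in 12 of 14 cases, with the thiolase POT1 at 3.73 ± 0.38, though the list as a whole took 0.0227% of basal and 0.0403% of salt counts. In gluconeogenesis, the isocitrate lyase ICL1 (2.30 ± 0.21) and the regulator CAT8 (2.22 ± 0.20) rose, and the key enzyme PCK1 was not called (-0.58 ± 0.32). Without salt replicate 1, PCK1 was called lower at -0.86.

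Individual hexose transporters moved in opposite directions. HXT5, a transporter of slowly growing and stressed cells, went from 1.32, 2.40 and 1.44 CPM to 401, 225 and 632 CPM (7.97 ± 0.42), and HXT1, the low-affinity carrier of high glucose, from 347, 627 and 596 CPM to 5317, 2568 and 5228 CPM (3.06 ± 0.29). HXT3, the other low-affinity carrier, moved from 944, 1528 and 1582 CPM to 324, 162 and 352 CPM (-2.28 ± 0.27, edgeR adjusted p = 3.16e-06). The groups did not overlap for any of the 3 genes, although salt replicate 2 had the lowest level of each within its group. GAL2, the galactose permease, also rose (4.51 ± 0.36). Of 15 tested members 4 rose and 3 fell, no larger a share than the background of 30.1% and 27.2%. Counts of the near-identical members among them depend on how reads that map to several genes were assigned, which is not given in the sources used here.

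At the cell surface, most genes of membrane domains rose, and wall genes moved in both directions. Of 12 genes of eisosomes, the furrows of the plasma membrane, and related domains, 10 rose and 1 fell. PIL1, the core eisosome protein, went from 728, 636 and 602 CPM to 3575, 4727 and 3804 CPM (2.62 ± 0.21), and FMP45 (6.65 ± 0.27) and NCE102 (2.23 ± 0.28) rose as well, whereas SUR7 fell (-1.29 ± 0.26). Of 33 wall genes 7 rose and 11 fell (median -0.25), against 30.1% and 27.2% of all genes. SED1, an abundant wall glycoprotein of stressed cells, went from 2620.1, 6149.6 and 3740.1 CPM to 14188, 8024 and 14161 CPM (1.54 ± 0.28), and the wall proteins SPI1 (6.69 ± 0.31) and CWP1 (4.16 ± 0.33) also rose. GAS1, the main glucan-extending enzyme of growing walls, went from 2358, 4199.6 and 4318 CPM to 1478, 699 and 1473 CPM (-1.58 ± 0.27), and the crosslinking enzyme UTR2 (-2.72 ± 0.23) and the daughter separation glucanase DSE4 (-2.00 ± 0.22) fell.

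Lipid genes also moved in both directions. Among 27 ergosterol genes 9 fell and 3 rose, against 27.2% and 30.1% of all genes. The number that fell was 14 without the 2 deviating libraries and 5 in a fit of only the 6 WT libraries. The late enzymes ERG11 (-1.50 ± 0.23), ERG3 (-1.31 ± 0.27) and ERG25 (-1.23 ± 0.24), which need oxygen, changed most, with ERG11 at 994, 1821 and 1564 CPM basal and 627, 354 and 566 CPM in salt. In sphingolipid synthesis, where 8 of 22 genes rose and 8 fell, the committed serine palmitoyltransferase LCB1 (-1.30 ± 0.19) and the hydroxylase SUR2 (-1.68 ± 0.20) fell. The ceramidase YPC1 (3.60 ± 0.34), ORM2 (2.33 ± 0.25), which restrains serine palmitoyltransferase, and RSB1 (2.12 ± 0.29), which moves long-chain bases, rose.

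Autophagy genes rose. Of 25 autophagy genes 19 rose and 0 fell (median 1.39). ATG8, whose product coats the growing autophagosome, went from 6.61, 3.27 and 3.32 CPM to 24.0, 57.0 and 22.4 CPM (2.95 ± 0.36, edgeR adjusted p = 4.21e-06), with salt replicate 2 highest and a change of 2.31 without it, and ATG39, the receptor for autophagy of the nucleus, rose by 4.38 ± 0.26. RPN4, the transcription factor of proteasome genes, rose by 2.37 ± 0.23, and the other called changes of 33 proteasome list members were below 1 on the log2 scale. Together 12 of them were called higher, against 30.1% of all genes. That count was 6 without basal replicate 2, 5 without basal replicate 3 and 4 in a fit of only the 6 WT libraries. Without salt replicate 2, 5 were called higher and 3 lower. The polyubiquitin gene UBI4 (2.85 ± 0.14) and ROQ1 (5.93 ± 0.34), which redirects the ubiquitin ligase Ubr1, rose.

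Ribosome assembly fell across nearly every gene listed. All 77 genes of large subunit assembly fell, with changes between -4.60 and -0.85, and 67 of 68 genes of small subunit assembly, against a background of 27.2%. NOG1, a GTPase of large subunit assembly, went from 711, 498 and 568 CPM to 26.2, 26.5 and 20.4 CPM (-4.60 ± 0.21, edgeR adjusted p = 7.99e-11). NSR1, a nucleolar protein of early rRNA processing, went from 1470.0, 1023 and 1121 CPM to 72.1, 66.5 and 61.8 CPM (-4.17 ± 0.20), and the ribosomal protein import adaptor SYO1 fell (-4.49 ± 0.24). The lowest basal library was several times above the highest salt library for each of these genes. The exception among the small subunit genes was RRP7 (-0.54 ± 0.26, edgeR adjusted p = 0.0862). RRP7 was called lower without salt replicate 2 (-1.09) and without both deviating libraries (-0.81). Median changes of these lists were -2.47 and -2.36, and 85.3% and 84.4% of the small and large subunit windows held RRPE.

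Some further large changes were seen. FMP48, which encodes a putative mitochondrial kinase, went from 2.02, 3.06 and 2.31 CPM to 1520.2, 1401 and 1423 CPM (9.22 ± 0.24, edgeR adjusted p = 5.96e-13). RTC3, related to a human ribosome maturation protein, went from 2.51, 3.27 and 1.37 CPM to 1416, 2049 and 1408 CPM. Neither gene had overlapping groups. Among the decreases, GFD2 (-4.21 ± 0.21) and BSC1 (-4.03 ± 0.29) have no established role, while RRS1 (-4.35 ± 0.16), NOG2 (-4.32 ± 0.15) and ALB1 (-3.77 ± 0.19) serve large subunit assembly and RRP12 (-4.29 ± 0.18), UTP23 (-4.00 ± 0.20) and the helicase DHR2 (-3.77 ± 0.19) the processing and export of pre-ribosomes. RRS1 stood at 96.3, 94.5 and 83.0 CPM basal and 4.13, 4.80 and 4.44 CPM in salt.

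The machinery that transcribes rRNA and tRNA fell with them. Of 37 subunits and factors of RNA polymerases I and III 27 fell and 4 rose. RPA190, the large subunit of polymerase I, went from 834, 809 and 772 CPM to 133, 124 and 136 CPM (-2.62 ± 0.15). The members that rose included MAF1 (1.10 ± 0.16), the repressor of polymerase III, and TFC3 (0.76 ± 0.16), a subunit of its factor TFIIIC. Without basal replicate 2, basal replicate 3 or salt replicate 2, 2 members were called higher. Of 11 regulators of ribosome genes 3 rose and 4 fell, near the background shares of 30.1% and 27.2%. Among them CRF1, a corepressor of ribosomal protein genes, rose by 4.23 ± 0.31, and the kinase SCH9 (-1.02 ± 0.18) fell. TOD6, a repressor that binds PAC, fell (-3.58 ± 0.19), while its paralog DOT6 was not called (0.06 ± 0.19). Of 39 tRNA modification genes 36 fell and 1 rose, with TRM2 at -3.33 ± 0.19 and TRM1 at -2.99 ± 0.16.

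Ribosomal protein genes had smaller changes. The test called 107 of 137 cytosolic ribosomal protein genes lower and 0 higher (median -0.64), against 27.2% and 30.1% of all genes. RPL3, an essential large subunit protein encoded by 1 gene, went from 5843, 6192 and 6327 CPM to 2724, 1887 and 2541 CPM (-1.36 ± 0.18), and RPS3 fell (-1.17 ± 0.17). In a fit of only the 6 WT libraries, whose common coefficient of variation was 0.218 against 0.171 over the 12 libraries of the experiment, 60 were called lower, and without the deviating libraries 122. Of 38 translation factors 30 fell and 0 rose, among them the elongation factor YEF3 (-1.41 ± 0.22). Values of paralog pairs with near-identical sequence are uncertain because the rule for reads mapping to several genes is not given in the sources used here.

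Synthesis of nucleotides and methyl donors was lower as well. Of 24 purine genes 20 fell and 1 rose. HPT1, which salvages guanine and hypoxanthine, went from 568, 477 and 478 CPM to 22.6, 23.1 and 21.1 CPM (-4.51 ± 0.16, edgeR adjusted p = 4.17e-12), and the first enzyme of the purine pathway, ADE4, fell (-2.36 ± 0.13). In pyrimidine synthesis, where 9 of 13 genes fell, the uridine permease FUI1 (-3.03 ± 0.24) and the CTP synthase URA7 (-2.45 ± 0.15) changed most, while the second CTP synthase gene URA8 rose (0.70 ± 0.17). One-carbon genes fell in 12 of 17 cases, among them SHM2 (-1.86 ± 0.25), and MET13, a methylenetetrahydrofolate reductase, rose (2.18 ± 0.24). Amino acid synthesis outside arginine and lysine fell in 22 of 50 cases, including its activator GCN4 (-1.53 ± 0.22), and rose in 3. Of 19 arginine and lysine synthesis genes 4 rose and 4 fell. The background for the lists of this paragraph was 27.2% of all genes lower and 30.1% higher.

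**Figure D4:**
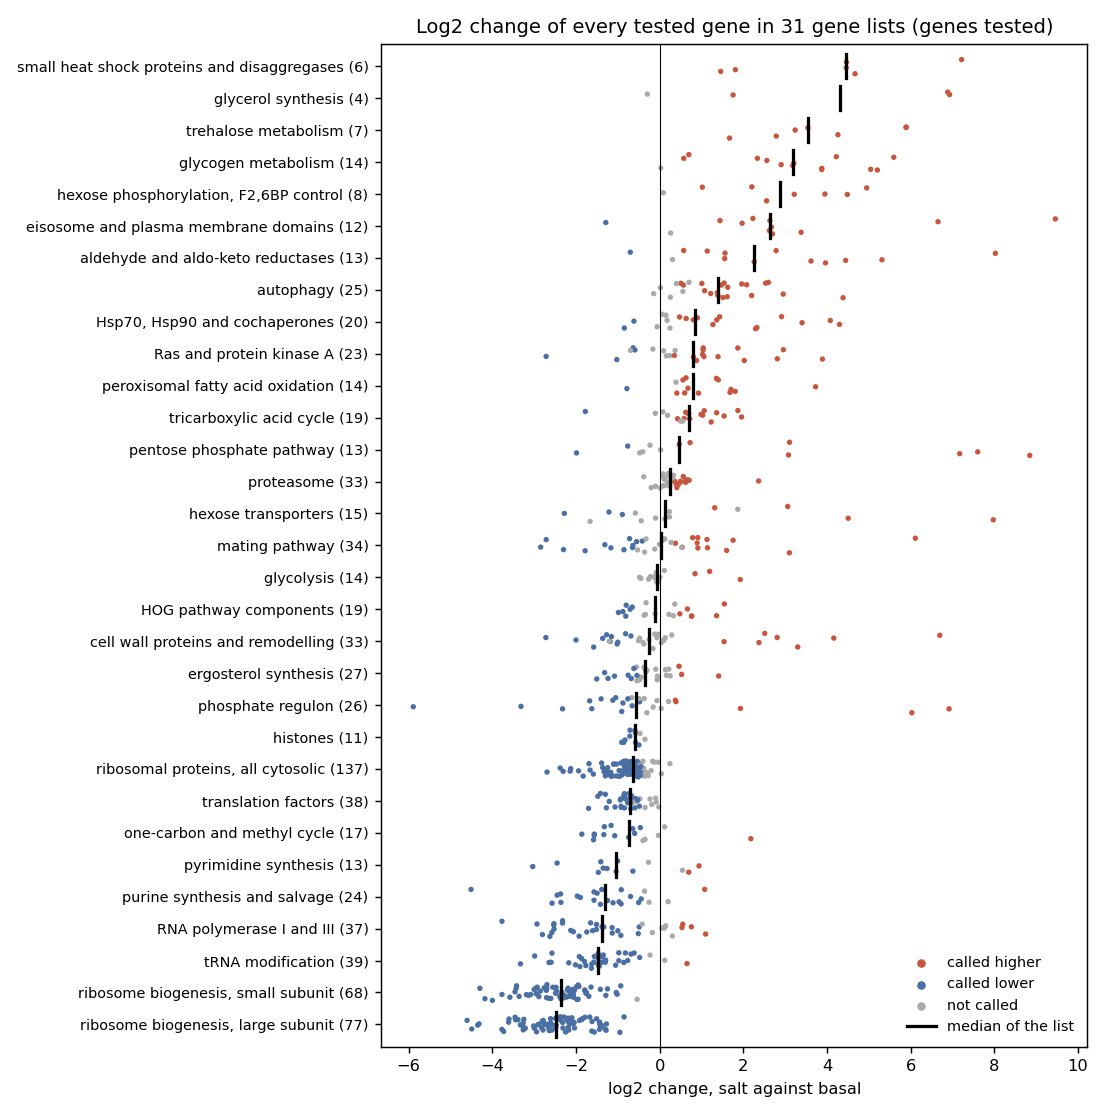
Log2 change in salt of every tested gene in 31 gene lists, ordered by the median of the list (black bar), with the number of genes tested in brackets. Red genes were called higher, blue genes lower and grey genes not called. Medians run from 4.46 for small heat shock proteins and disaggregases to -2.47 for large subunit assembly, and lists with a median near 0, such as the mating pathway, hold changes in both directions.

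Nutrient regulons held the largest single decrease. PHO84, the high-affinity phosphate transporter, went from 196, 418 and 545 CPM to 8.08, 4.90 and 6.80 CPM (-5.89 ± 0.48, edgeR adjusted p = 4.59e-08). Basal replicate 1 was lowest of its group and still far above every salt library. Of 26 phosphate regulon genes 13 fell and 5 rose. PHM6 (-3.31 ± 0.37) and the factor PHO4 (-1.62 ± 0.20) fell, while PHM7 (6.92 ± 0.39), PHM8 (6.03 ± 0.31) and the sodium/phosphate symporter PHO89 (1.93 ± 0.32) rose. Of 25 iron genes 11 fell, with the reductase FRE1 (-3.15 ± 0.22) and the permease FTR1 (-2.74 ± 0.19) changing most, and 5 rose. The background for both lists was 27.2% of all genes lower and 30.1% higher. Among other transporters the proline permease PUT4 (6.21 ± 0.31) rose, and the polyamine exporter TPO2 (-4.42 ± 0.38) and the histidine permease HIP1 (-1.46 ± 0.25) fell. The change of PHM6 was -4.17 without salt replicate 2, and without basal replicate 3 the phosphate genes called higher were 3.

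Signalling through Ras and protein kinase A, which promotes growth on glucose, showed paralogs moving apart. The catalytic subunit TPK2 rose (2.02 ± 0.14) and its paralog TPK3 fell (-0.63 ± 0.19), though not with total counts alone as the scaling (-0.46). RAS2 rose (1.40 ± 0.18) and RAS1 fell (-2.71 ± 0.17), and the kinase YAK1, which counteracts the pathway, rose (2.96 ± 0.14). Altogether 13 of 23 genes rose and 4 fell, against 30.1% and 27.2% of all genes.

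Among cell cycle genes, the lists for mitosis, replication licensing and histones each had more genes called lower than higher. The mitotic cyclin CLB2 went from 119, 131 and 116 CPM to 32.8, 30.7 and 28.7 CPM (-1.99 ± 0.13), and CLB1 (-1.39 ± 0.15) and the mitotic activator CDC20 (-1.41 ± 0.15) fell, within a list of 17 mitotic genes of which 8 fell and 4 rose. In the list for the G1 phase and entry into S phase, 5 of 16 genes fell and 2 rose, against 27.2% and 30.1% of all genes. In it the ribonucleotide reductase RNR1 (-1.89 ± 0.24) and the cyclin CLB6 (-1.18 ± 0.29) fell, and SWE1, the kinase that delays mitosis, rose (0.93 ± 0.21). The count of mitotic genes called higher was 2 without basal replicate 3 or salt replicate 3 and 1 without salt replicate 2. Histone genes fell in 9 of 11 cases, with changes between -0.90 and -0.35, and in 5 with total counts alone as the scaling. Of 12 replication licensing genes 6 fell and 0 rose.

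The mating pathway shares STE11 and STE50 with the HOG pathway. Of 34 genes 12 rose and 12 fell, near the background shares of 30.1% and 27.2%. PRM10 (6.11 ± 0.25), FUS2 (1.76 ± 0.22) and FUS1 (1.60 ± 0.13), the last a cell fusion protein, rose. FAR1, the inhibitor of G1 cyclin kinase, went from 153, 123 and 168 CPM to 22.4, 21.5 and 17.9 CPM (-2.84 ± 0.16), the pheromone gene MFA2 (-2.71 ± 0.25) and the pheromone receptor gene STE2 (-1.31 ± 0.22) fell. MFA1, which encodes the same pheromone, was not called (-0.32 ± 0.19). Among markers of other cell states, meiosis and sporulation genes had 9 of 14 genes higher and 1 lower, yet it took 0.00594% of basal and 0.0155% of salt counts.

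These changes altered what the libraries consisted of. The 998 genes that rose at least 2-fold took 3.03% ± 0.0542 of all counts in basal libraries (SD, n = 3) and 20.5% ± 0.427 in salt. The 743 that fell at least 2-fold took 19.5% ± 0.437 and 7.41% ± 0.374. These shares were computed from the genes the test had called and are a description. Among the gene lists, the ribosomal proteins held 27.9, 23.4 and 22.6% of counts in basal and 16.9, 19.2 and 16.7% in salt replicates 1, 2 and 3, the largest share lost by any list. The Msn2 and Msn4 type genes went from 0.127% ± 0.00667 to 3.59% ± 0.280, and the 4 glycerol synthesis genes from 0.210% ± 0.0155 to 2.10% ± 0.0342. For each of these the groups did not overlap, and an exact two-sided permutation test gave p = 0.1, the smallest that 3 against 3 allows. Glycolysis took 7.66% ± 1.05 and 8.03% ± 1.60, with overlapping groups (exact permutation p = 0.6).

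**Figure D5:**
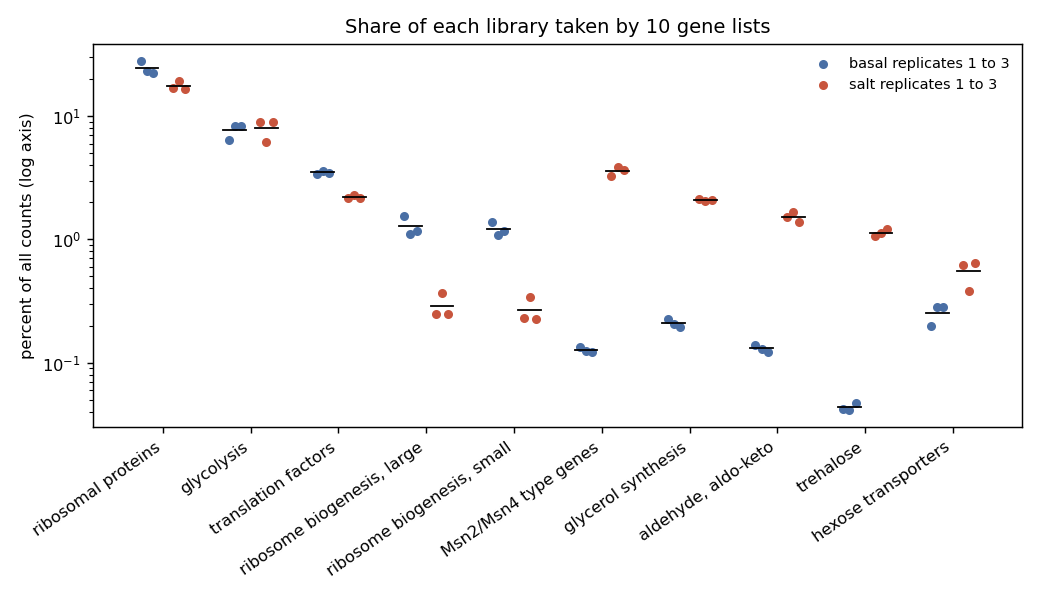
Percent of all counts in each library that fell on 10 gene lists, on a log axis. Blue points are basal and red points salt replicates 1, 2 and 3 from left to right, and bars are group means. The Msn2 and Msn4 type genes go from a mean of 0.127% to 3.59% and large subunit assembly from 1.28% to 0.288%, and glycolysis overlaps between the groups.

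Ranked by CPM per kilobase of the annotated gene over 6007 protein-coding genes, 24 of the 30 most abundant basal transcripts were also among the 30 most abundant in salt. GPD1 rose from rank 1592 to rank 8, from 85.1 ± 20.2 to 10368 ± 2451 CPM per kilobase (SD, n = 3). GPP1 went from rank 102 to 16, SED1 from 56 to 7, HOR7, a small stress-induced plasma membrane protein gene, from 485 to 26 and SPO24 from 318 to 30. MFA2 went the other way, from rank 24 to 177. RPL41A was at rank 1 in both groups.

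The response was set against that of the other WT experiment and of HOG1-KO cells by tests of the differences. The response differed between the 2 WT experiments for 93 genes in the higher (1.53% of 6092) and 64 in the lower direction (1.05%), where the library kit and the marker genes LEU2, MET17 and URA3 differ between the experiments and cannot be told apart. These counts were unstable: 455 and 359 without basal replicate 1 and salt replicate 2, 239 and 157 with DESeq2, and 49 to 175 and 13 to 164 with each library of the 2 experiments left out, where the highest came without basal replicate 1 of experiment 2. The fall of PHO84 was larger in experiment 2, a difference of -4.36 ± 0.46 in log2 units (edgeR adjusted p = 2.44e-04), with -1.57 ± 0.18 in experiment 1. The rise of HSP12 was larger as well, by 2.28 ± 0.31 (edgeR adjusted p = 0.00138), with 7.41 ± 0.15 in experiment 1. BSC1 (-4.03 ± 0.29 in experiment 2 and -2.05 ± 0.20 in experiment 1) and PRM7 (-3.90 ± 0.28 and -1.82 ± 0.12) also fell further in experiment 2. TRM11 (-2.59 ± 0.17 and -5.34 ± 0.16) and URA7 (-4.73 ± 0.10 in experiment 1) fell less in experiment 2, and PHM8 rose more there (3.72 ± 0.14 in experiment 1).

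The deleted gene HOG1 had at most 1 count in each of the 6 HOG1-KO libraries. In these cells the log2 change in salt was higher than in WT for 279 genes (4.57% of 6107) and lower for 320 (5.24%), which became 611 and 637 without the 2 deviating libraries and 589 and 407 without salt replicate 2 alone. The WT increases of STL1, ALD3 and TKL2 were larger than in HOG1-KO cells, and the difference, HOG1-KO minus WT, was -11.83 ± 0.70, -6.22 ± 0.26 and -7.99 ± 0.56 on the log2 scale. Of the glycerol synthesis genes 3 had a lower response without Hog1, and of the Msn2 and Msn4 type genes 28 of 39. The autophagy list held 7 of 25 genes with a smaller response there, and the isozyme genes TKL2 (0.85 ± 0.38 in HOG1-KO cells), NQM1 (2.11 ± 0.19) and SOL4 (3.12 ± 0.30) were among the genes with a lower response. SFG1, a regulator of superficial growth, fell more in WT (-3.94 ± 0.19) than in HOG1-KO cells (-0.92 ± 0.17).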

How the data were processed

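The authors deposited raw counts per gene for each library of experiment 2, made with HISAT2 2.1.0 and featureCounts 1.5.1 on genome R64 per the submitters' processing notes. Not given in the sources used here are the annotation release, the strand setting and how multimapping reads were counted. Counts were tested with edgeR 4.0.16 (TMM scaling, filterByExpr, robust quasi-likelihood F test, Benjamini-Hochberg adjustment, threshold 0.05) in a fit of all 12 libraries of the experiment, with WT salt minus WT basal as the contrast. The response of experiment 2 was compared with that of experiment 1 and of HOG1-KO cells by interaction terms. The procedure was tested on simulated data, with 50 genes changed at each size and direction. It called 72% of genes with a log2 change of 1 in either direction, 100% of those with a change of 2 and 0.23% of unchanged genes. The simulated libraries did not deviate together and few genes were changed, so it cannot show how the procedure fared under the conditions of these data. Alternatives were DESeq2 1.42.0, other scalings and filters, a replicate block, a test against a 1.5-fold change, only the 6 WT libraries, and leaving out each library or both deviating libraries. 

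Named genes were the largest called changes overall and in each gene list, the largest changes in mean CPM, the largest called differences between experiments or strains, and a panel of pathway genes. Another 29 were added after their values were seen, as paralogs, counterparts or exceptions. The members and lists were chosen with earlier results of these data known. Some members of the lists are counted but not reported here by name. Of 7126 identifiers, 6079 matched the RefSeq R64 annotation. Upstream windows and lengths came from that genome. The edgeR p-values rest on the spread between biological triplicates, estimated jointly over all libraries of a fit. For the WT contrast these included the HOG1-KO libraries.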

Additional observations from a re-analysis of the deposited data

Results flagged for a closer look

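The responses of 7 genes to salt differed between experiment 2 and experiment 1, each by a test of the difference itself (edgeR, experiment 2 minus experiment 1). On the log2 scale the difference was 2.28 ± 0.31 for HSP12, 2.71 ± 0.28 for TRM11, 2.23 ± 0.19 for URA7 and 2.25 ± 0.37 for PHM8. It was -4.36 ± 0.46 for PHO84, -2.02 ± 0.43 for BSC1 and -2.13 ± 0.36 for PRM7.

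The responses of 8 genes differed between HOG1-KO and WT cells of experiment 2 (HOG1-KO minus WT, same kind of test). The difference was -11.83 ± 0.70 for STL1, -7.99 ± 0.56 for TKL2, -6.22 ± 0.26 for ALD3, -5.49 ± 0.28 for FMP48 and -5.52 ± 0.35 for PRM10. It was 3.02 ± 0.25 for SFG1, 2.37 ± 0.53 for GAL2 and 3.28 ± 0.46 for RSB1. These genes were picked for a large difference among all tested, and the values are a description.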

How the results depend on the processing

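The counts of genes called higher and lower in WT salt cells stayed within 1.5 times of 1836 and 1659 under the scalings, filters, DESeq2, the replicate block (1607 and 1470) and each left-out library (1625 to 1904 and 1507 to 1942), and were 1035 and 821 when tested against a 1.5-fold change. With only the 6 WT libraries in the fit, the counts were 1422 and 1310. Of 167 named genes that were called, 162 kept call and direction under every alternative except the 1.5-fold test, under which 16 lost it, and none reversed. Many of these genes were picked for large called changes in these data, so the 162 cannot stand for called genes as a whole. The difference between experiments (93 and 64) was less stable: 239 and 157 with DESeq2, 13 and 4 with the replicate block, 455 and 359 without basal replicate 1 and salt replicate 2, 24 lower with total counts alone, and 49 to 175 and 13 to 164 with each library left out. The difference between strains (279 and 320) was 148 and 212 with the replicate block, 611 and 637 without both deviating libraries, and 215 to 589 and 264 to 407 with each library left out. With genes changed at least 2-fold, the STRE share of genes called higher was 46.7%, and the PAC and RRPE shares of genes called lower were 37.6% and 47.7%. The cause was not tested. Deviations of same-numbered libraries had r = -0.67, -0.66 and 0.71 for replicates 1, 2 and 3 over 5128 genes, and basal replicate 1 correlated best with salt replicate 2 (r = 0.86). Levels were centred within each group, so the deviating library of each group shapes all of these values. They cannot show whether the numbers pair the samples. With total counts alone 7 of 78 list medians changed sign, so changes near the smallest called size (0.30 on the log2 scale) depend on the scaling.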
